A study of Homo sapiens with 6 samples.

Results

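The mesenchymal and EMT transcription factor genes PRRX1, PRRX2, MEOX1, MEOX2, TWIST1, TWIST2, SNAI1, SNAI2, ZEB1 and ZEB2 were followed in A375 cells with and without DUS1L. They were taken by symbol and are 10 of the 63086 genes in the deposited table. The set was chosen by measured values of this comparison: PRRX1 and MEOX2 were already known to be low in the knockout libraries, and the other genes are their paralogs and the classical EMT factors. The knockout comparison of these genes is therefore given as a description, without a p-value for any of them.

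A375 is an established human melanoma line with an activating BRAF mutation, and DUS1L encodes an enzyme that makes dihydrouridine in tRNA. The 3 libraries labelled wild-type came from cells kept in parallel without DUS1L targeting, and the 3 labelled DUS1L knockout from cells edited with CRISPR/Cas9 and then selected as clones. The number of clones was not given in the sources used here, so effects of losing DUS1L and of picking a clone cannot be told apart. Both genotypes grew in the same serum-containing medium, with no further treatment named. The submitters describe the libraries as biological replicates, and the p-values measure the spread between them.

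Libraries held 17121315 to 18861514 estimated counts. The first principal component (53.0% of the variance) separated the genotypes, and wild-type replicate 1 stood apart from the other libraries on the second (13.7%), at 31.6 against -16.3 to 9.23. DUS1L itself was at 77.6 ± 2.17 counts per 1000000 library counts (CPM; mean ± SD, n = 3 here and throughout) in the wild type against 54.4 ± 1.15 CPM after knockout, with 70.2% of the transcript left (adjusted p = 1.7e-06). This level is of RNA, and DUS1L protein was not measured here. Melanoma lineage markers were present in part: SOX10 was at 604 ± 16.9 and 481 ± 33.8 CPM and MITF at 19.6 ± 0.749 and 20.6 ± 1.20 CPM, whereas TYR had no count in any library and DCT, PMEL and MLANA had at most 9. In such bulk libraries, fewer cells of a type and less RNA per cell cannot be told apart.

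Epithelial-mesenchymal transition (EMT) is the loss of epithelial junctions and polarity in favour of a motile, matrix-producing state. The zinc finger factors of the SNAI and ZEB families bind E-box sequences in epithelial promoters, CDH1 among them, and repress them. TWIST factors are basic helix-loop-helix proteins that act in dimers with E proteins, and PRRX and MEOX factors are homeodomain proteins of limb, facial and somite mesenchyme. Melanocytes descend from the neural crest, and in melanoma SNAI2 and ZEB2 are known from the differentiated, pigmented state and TWIST1 and ZEB1 from the dedifferentiated, invasive state.

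PRRX1, MEOX2 and TWIST1 were far lower in knockout cells, each below its wild-type values in every library, while SNAI1, SNAI2, TWIST2 and ZEB1 overlapped between genotypes. ZEB2 was slightly higher. Of the 10 genes, 9 had enough counts to be tested. At an adjusted p under 0.05, 3 of them were called lower and 1 higher, against 41.2% of all 16046 tested genes called in either direction (20.7% lower and 20.5% higher). The knockout libraries of 3 genes lay wholly below and of 1 wholly above the wild-type libraries, where 51.1% of all tested genes did not overlap (25.8% below and 25.4% above). The 3 lower genes also passed a test against a change of 1.5-fold, which 3.58% of all tested genes passed and 1.27% passed as lower. Nothing is read from these shares, since the genes were chosen with this comparison known. The median log2 fold change of the 9 genes was -0.09, and that of all tested genes -0.00.

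**Figure D1:**
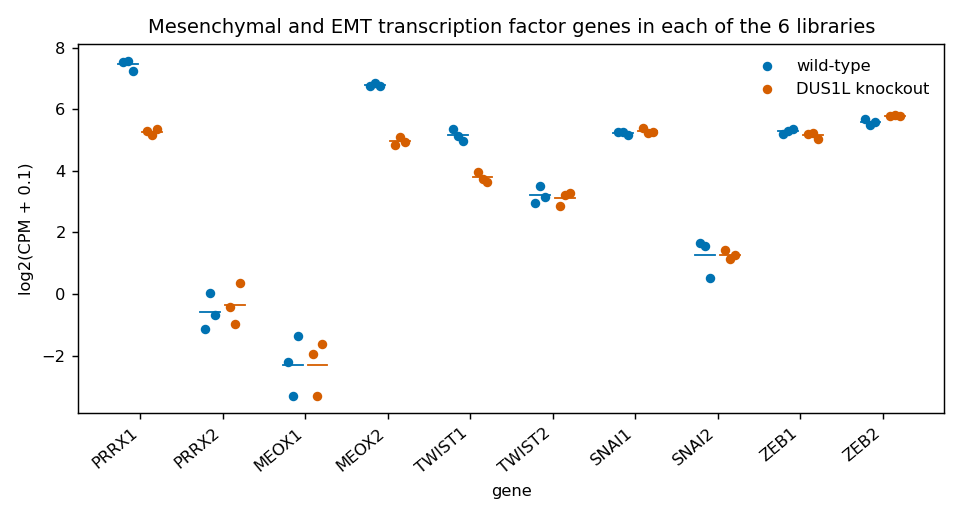
Level of each transcription factor gene in each library, as log2(CPM + 0.1) on the y axis, with 3 wild-type points (blue) and 3 DUS1L knockout points (orange) per gene and a line at the mean of the log values. PRRX1, MEOX2 and TWIST1 show separate groups of points, ZEB2 a narrow gap, and the others overlap.

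PRRX1, a paired-type homeobox factor of limb and craniofacial mesenchyme that also drives EMT in some carcinomas, had the lowest fold change of the set. It was at 186, 190.3 and 153 CPM in the wild type against 39.2, 35.4 and 40.5 CPM after knockout. The lowest wild-type library was thus well above the highest knockout library. The level in knockout cells was 21.8% of that in wild-type cells (log2 fold change -2.20, SE 0.08, 95% interval -2.38 to -2.02). It was the 15th lowest log2 fold change of all 16046 tested genes. PRRX1 spans chr1:170662728-170739421 on the plus strand (GRCh38).

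PRRX2, its paralog, was close to the limit of detection. Its counts were 6, 17 and 9 in wild-type and 12, 7 and 21 in knockout libraries, or 0.599 ± 0.292 and 0.742 ± 0.400 CPM. The values of the genotypes overlapped, and the interval of the log2 fold change was wide, from -0.78 to 1.38. The log2 fold change was 0.30, and -0.20 without knockout replicate 3, so no direction can be given. Per kilobase of exon, PRRX1 made up 97.9% ± 0.892 of the sum of the pair in wild-type and 89.4% ± 4.56 in knockout libraries.

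MEOX2, a homeobox factor of somites, limb muscle and blood vessels that is known to hold vascular cells in quiescence, followed PRRX1. Its level was 107, 114 and 108 CPM in wild-type and 28.7, 33.8 and 30.6 CPM in knockout libraries. All knockout values lay below all wild-type values, with 28.3% of the level left (log2 fold change -1.82, SE 0.07, 95% interval -1.97 to -1.68). The gene spans chr7:15611212-15686683 on the minus strand (GRCh38). MEOX1, which acts with MEOX2 in somite patterning, had 2, 0 and 5 counts in wild-type and 3, 0 and 4 in knockout libraries. These values are at or near the 3 counts taken as the floor, which correspond to 0.159 to 0.176 CPM, so MEOX1 was not tested and no fold is given.

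The 300-base RefSeq promoter windows of PRRX1 and MEOX2 are shown because these genes were the lowest of the set together. The windows run from 250 bases before to 50 bases after the annotated start, 5′ to 3′ on the gene's strand (GRCh38.p14), and the capitals mark the bases from the start onward. The PRRX1 window is chr1:170663881-170664180 on the plus strand and the MEOX2 window chr7:15686634-15686933 on the minus strand.
PRRX1: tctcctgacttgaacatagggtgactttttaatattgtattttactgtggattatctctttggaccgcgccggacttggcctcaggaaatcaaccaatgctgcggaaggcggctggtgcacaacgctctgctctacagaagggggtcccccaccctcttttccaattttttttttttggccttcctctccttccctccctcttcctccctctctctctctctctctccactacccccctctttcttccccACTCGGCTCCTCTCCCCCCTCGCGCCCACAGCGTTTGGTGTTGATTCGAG
MEOX2: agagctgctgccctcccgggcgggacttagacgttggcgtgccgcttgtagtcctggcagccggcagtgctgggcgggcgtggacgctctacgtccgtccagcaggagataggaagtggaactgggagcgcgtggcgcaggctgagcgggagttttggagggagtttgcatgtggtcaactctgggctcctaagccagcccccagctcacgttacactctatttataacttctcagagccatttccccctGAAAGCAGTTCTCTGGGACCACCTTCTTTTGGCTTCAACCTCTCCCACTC
The windows differ in base composition, with 53.0% G and C in PRRX1 and 59.7% in MEOX2. They were searched on both strands for the E-box of SNAI and ZEB factors, CACCTG, read as CAGGTG on the other strand. An E-box of TWIST, CATATG, was searched as well. The homeodomain cores searched were TAATTA and TAATTG, the latter read as CAATTA on the other strand, and they can overlap each other. Neither window held any of these motifs.

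TWIST1, the basic helix-loop-helix factor of cranial mesenchyme and of metastatic EMT, was the other gene that stood well apart. Its level was 40.8, 35.3 and 31.2 CPM in wild-type and 15.6, 13.3 and 12.4 CPM in knockout libraries, and the groups did not overlap. The level left was 38.5% (log2 fold change -1.38, SE 0.11, 95% interval -1.61 to -1.14). TWIST1 spans chr7:19020991-19117636 on the minus strand (GRCh38), on the same arm as MEOX2.

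TWIST2, which shares the helix-loop-helix domain and is best known from dermis and bone, gave 7.70, 11.2 and 8.78 CPM in wild-type and 7.17, 9.19 and 9.70 CPM in knockout libraries. The genotypes overlapped (log2 fold change -0.09, SE 0.16, 95% interval -0.42 to 0.24). That interval lies wholly above the interval of TWIST1. Within the pair, TWIST1 took 80.4% ± 4.07 of the level per kilobase in wild-type libraries and 62.7% ± 6.41 in knockout libraries, and the ranges over libraries did not meet (77.1% to 85.0% and 57.6% to 69.9%).

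SNAI1, the zinc finger repressor that starts many EMT programs, showed little difference. It was at 37.8, 38.0 and 36.0 CPM in wild-type and 41.5, 37.0 and 37.9 CPM in knockout libraries, and the interval of its log2 fold change, -0.10 to 0.22, was narrow. SNAI2 (Slug), a neural crest and melanocyte factor, was far less abundant. Its wild-type libraries gave 3.06, 2.87 and 1.34 CPM and its knockout libraries 2.60, 2.08 and 2.31 CPM. The knockout values lay within the wild-type range, of which wild-type replicate 3 was the low end, and the interval of the log2 fold change was -0.68 to 0.58. The log2 fold change of SNAI2 was -0.34 without wild-type replicate 3 and 0.14 without wild-type replicate 1, so no direction can be given.

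ZEB1, a zinc finger and homeodomain repressor that recruits CTBP corepressors, was at 36.5, 39.4 and 40.5 CPM in wild-type and 36.4, 37.6 and 33.0 CPM in knockout libraries. The genotypes overlapped (log2 fold change -0.12, SE 0.08, 95% interval -0.29 to 0.04). ZEB2, its paralog and a factor of melanocyte differentiation, gave 51.0, 44.9 and 48.0 CPM in wild-type and 54.6, 55.6 and 54.4 CPM in knockout libraries. Every knockout value was above every wild-type value, by a small margin (log2 fold change 0.20, SE 0.07, 95% interval 0.05 to 0.34). ZEB2 was not called with DESeq2, without a filter on low counts, or when any library other than wild-type replicate 1 was left out, where its log2 fold change was 0.15 to 0.20.

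Levels can be compared between genes only per length of transcript. In CPM per kilobase of merged exons, MEOX2 was the highest of the set in wild-type cells at 46.3 ± 1.66. SNAI1 (21.9 ± 0.656) and PRRX1 (21.4 ± 2.50) followed with overlapping libraries, and TWIST1 (17.9 ± 2.41) overlapped PRRX1 but not SNAI1. ZEB1 (4.49 ± 0.240) and TWIST2 (4.32 ± 0.832) overlapped as well, and ZEB2 (1.83 ± 0.118) lay below them. SNAI2, PRRX2 and MEOX1 were under 1 CPM per kilobase.

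In knockout cells the order was another. SNAI1 was the highest at 22.8 ± 1.42 CPM per kilobase, above MEOX2 at 13.1 ± 1.08, and TWIST1 (6.89 ± 0.842) came next. PRRX1 (4.65 ± 0.319), ZEB1 (4.13 ± 0.278) and TWIST2 (4.08 ± 0.627) overlapped. The length used changes the levels of PRRX1, TWIST1, TWIST2, SNAI2, ZEB1 and ZEB2, and with it part of the order. With the Ensembl canonical transcript, a length chosen after seeing the data, PRRX1 was at 43.4 ± 5.07 in wild-type and 9.45 ± 0.648 in knockout libraries, where it overlapped TWIST1 at 8.44 ± 1.03. ZEB2 was at 5.18 ± 0.332 and 5.93 ± 0.0706 on that scale. With this length MEOX2 (46.3 ± 1.66) had the highest mean in wild-type libraries but overlapped PRRX1. SNAI1 was the highest in knockout libraries with either length.

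Of the 20 nearest tested protein-coding neighbours, 1 on each side of each gene, 3 were called higher, 3 lower and 14 were not called, where 41.2% of all tested genes were called. Their distances ran from 15.7 kb (PTGES to PRRX2) to 3323 kb (ACVR2A to ZEB2), so not all are close. AGMO, which encodes an ether lipid monooxygenase and lies 49.2 kb beyond the 3′ end of MEOX2 on the same strand, fell too. It was at 23.8, 21.7 and 22.9 CPM in wild-type and 6.27, 8.49 and 7.62 CPM in knockout libraries (adjusted p = 3.11e-09, log2 fold change -1.61 with an SE of 0.12).

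HDAC9, a class IIa histone deacetylase gene, moved against TWIST1. Its end lies 18.6 kb from the annotated span of TWIST1, which is far longer than the 1997 bases of merged TWIST1 exons. HDAC9 rose from 58.0, 43.1 and 50.5 CPM to 107, 120.3 and 99.1 CPM (adjusted p = 5.53e-06, log2 fold change 1.11 with an SE of 0.10). On the other side of TWIST1, POLR1F was at 68.9 ± 3.78 and 76.8 ± 4.58 CPM (adjusted p = 0.0642, or 0.0198 with library totals as the scaling). Beside PRRX1, GORAB was at 66.7, 53.1 and 50.01 CPM in wild-type and 63.4, 63.9 and 66.8 CPM in knockout libraries and was not called (adjusted p = 0.0896). When wild-type replicate 1 was left out, GORAB was called higher (adjusted p = 0.000473, log2 fold change 0.33). The same was so with library totals as the scaling (adjusted p = 0.0362, log2 fold change 0.24). RNF114, a ubiquitin ligase gene 29.1 kb from SNAI1, rose (log2 fold change 0.57, adjusted p = 7.22e-08). ARHGAP12, which encodes a GTPase-activating protein and lies 275.6 kb from ZEB1, fell (log2 fold change -0.66, adjusted p = 5.03e-06). Neither SNAI1 nor ZEB1 was called.

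**Figure D2:**
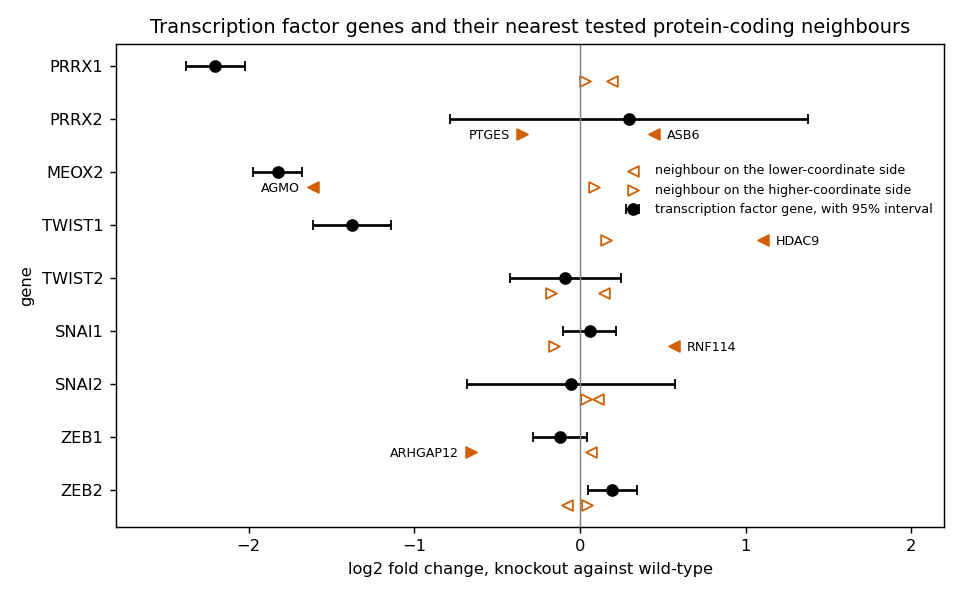
Log2 fold change of knockout against wild-type on the x axis for the 9 tested transcription factor genes (black points, bars for 95% intervals) and for the nearest tested protein-coding gene on each side (triangles pointing to the side, filled and named where called). AGMO sits beside MEOX2 at -1.61, HDAC9 opposite TWIST1 at 1.11, and the neighbours of PRRX1 at 0.03 and 0.19.

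Low-abundance RNAs that overlap the reduced genes were also low. An unnamed long noncoding RNA on the strand of PRRX1 (ENSG00000271811) fell from 1.35 ± 0.546 to 0.225 ± 0.116 CPM (adjusted p = 0.000612). One antisense to MEOX2 (ENSG00000237070) fell from 1.99 ± 0.549 to 0.546 ± 0.299 CPM (adjusted p = 0.00184). One antisense to TWIST1 (ENSG00000232821), with at most 12 counts, was not tested and was at 0.554 ± 0.134 and 0.0562 ± 0.0578 CPM. These RNAs were singled out by their overlap, and the strand setting of the counting was not given in the sources used here. Reads of such a gene and its partner therefore cannot be told apart.

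ZEB1-AS1, the RNA transcribed away from the start of ZEB1, was lower although ZEB1 was not called. It was at 1.88, 1.79 and 2.21 CPM in wild-type and 0.691, 1.33 and 0.508 CPM in knockout libraries, from 38 counts at most (adjusted p = 0.0161, log2 fold change -1.22 with an SE of 0.39). The call was lost without wild-type replicate 3 or knockout replicate 1 or 3 (adjusted p = 0.0614, 0.0614 and 0.0787). ZEB2-AS1 had 1 to 8 counts and was not tested. The hosts of the miR-200c and miR-205 microRNAs that target ZEB transcripts, MIR200CHG and MIR205HG, had no count in any library, and DNM3OS, the host of miR-199a and miR-214, had 0 to 9.

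One of the 7 RefSeq windows of ZEB1, chr10:31318966-31319265 on the plus strand (GRCh38.p14), overlaps a window of ZEB1-AS1 and is shown for its 3 E-boxes, which are in capitals.
ZEB1: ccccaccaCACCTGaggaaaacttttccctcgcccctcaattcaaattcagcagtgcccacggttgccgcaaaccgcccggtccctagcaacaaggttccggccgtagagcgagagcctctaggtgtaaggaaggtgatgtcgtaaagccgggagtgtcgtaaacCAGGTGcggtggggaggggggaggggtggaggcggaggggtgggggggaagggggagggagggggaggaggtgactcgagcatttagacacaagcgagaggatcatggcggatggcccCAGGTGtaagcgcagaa
Windows were found for 6 of the 10 genes, 12 windows in all, of which 2 held CACCTG or CAGGTG, both of them of ZEB1. The same letters were in 20.6% of all 35116 promoter windows of that length. The ZEB2 window held 1 CAATTA, which with TAATTG was in 7.38% of all windows. No window of the 6 genes held CATATG or TAATTA, which were in 3.04% and 4.84% of all windows. A match is a run of letters and not a measured binding site.

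The gene profiles nearest to PRRX1 over the 6 libraries were found by the root mean square distance of log2 CPM, centred on the wild-type mean, among 11016 protein-coding genes averaging at least 5 CPM. They were SOX2, a stem cell and neural crest factor (distance 0.166), AKR1C2, an aldo-keto reductase with near-identical relatives that can share its reads (0.182), MYH15 (0.338), ART3 (0.349) and OLFML3, a secreted matrix scaffold gene (0.440). SOX2 was at 14.3, 17.1 and 12.5 CPM in wild-type and 4.04, 2.95 and 3.84 CPM in knockout libraries. Those nearest to MEOX2 were AGMO (0.173), its neighbour on the chromosome, the BMP antagonist gene CHRDL1 (0.178), OLFML3 (0.206), the TNF receptor family gene TNFRSF19 (0.211) and the pseudokinase gene TRIB2 (0.223). TRIB2 was at 84.1, 87.3 and 83.1 CPM in wild-type and 27.4, 28.7 and 31.9 CPM in knockout libraries. The profiles of PRRX1 and MEOX2 were 0.302 apart. TWIST1 was farther from both, at 0.595 from PRRX1 and 0.370 from MEOX2. These distances rest mainly on the difference between genotypes and are a description.

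E proteins pair with TWIST factors on DNA, and ID proteins hold E proteins away from it. Of 8 tested genes of this group, 3 fell and 1 rose, with a median log2 fold change of -0.27. Of all tested genes, 20.7% fell and 20.5% rose, or 41.2% in either direction. ID1 fell from 139 ± 5.62 to 83.3 ± 2.22 CPM (adjusted p = 3.46e-09, log2 fold change -0.74 with an SE of 0.06), ID3 from 70.5 ± 1.45 to 58.7 ± 4.42 CPM and the E protein gene TCF12 from 138 ± 4.84 to 113 ± 4.73 CPM. ID2 rose from 8.69 ± 0.570 to 11.7 ± 0.924 CPM, a call lost without knockout replicate 1 (adjusted p = 0.0729). TCF4, the E protein linked to mesenchymal states, was at 12.1 ± 1.43 and 10.9 ± 0.860 CPM (adjusted p = 0.394).

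Of 32 genes for corepressors of SNAI and ZEB factors and regulators of their stability, 5 rose and 12 fell, with a median log2 fold change of -0.04, where 20.5% of all tested genes rose and 20.7% fell. Against a change of 1.5-fold, 1 gene passed, and it was higher, where 2.31% of all tested genes passed as higher and 1.27% as lower. With library totals as the scaling, 9 rose and 10 fell, where calls over all genes moved from 3288 to 3880 higher and from 3320 to 2732 lower. The LIM protein gene AJUBA, whose product bridges SNAI1 to its corepressors, rose from 62.1 ± 5.62 to 120.3 ± 12.4 CPM (adjusted p = 5.55e-08). The Hippo kinase gene LATS2 rose from 43.3 ± 2.01 to 72.5 ± 4.11 CPM (adjusted p = 4.77e-08). The histone modifiers KDM1A and EHMT2 fell (log2 fold changes -0.29 and -0.41, adjusted p = 0.00015 and 0.000284). CTBP1, the ZEB corepressor, fell (log2 fold change -0.18, adjusted p = 0.0226), a call lost with library totals as the scaling (adjusted p = 0.0924) and without any of 4 libraries: wild-type replicates 2 and 3 and knockout replicates 2 and 3 (adjusted p = 0.0773, 0.0826, 0.127 and 0.0672).

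TGF-beta and BMP signals induce these factors in many tissues. All 29 listed genes were tested, and 7 rose and 10 fell (median log2 fold change -0.04), where 20.5% of all tested genes rose and 20.7% fell. The ligand gene TGFB1 fell from 109.9 ± 11.9 to 76.4 ± 0.903 CPM (adjusted p = 5.77e-06) and BMP4 from 7.18 ± 0.180 to 2.46 ± 0.529 CPM (adjusted p = 4e-06). INHBA, which encodes the activin A subunit, rose from 153 ± 18.3 to 353 ± 30.8 CPM (adjusted p = 1.86e-06). The SMAD corepressor gene SKIL rose from 35.9 ± 1.83 to 55.5 ± 3.85 CPM (adjusted p = 1.45e-06).

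Mesenchymal effector genes were more often called lower than higher, but the larger changes were mostly upward. Of 35 tested genes of 39, 19 fell and 5 rose, where 20.7% of all tested genes fell and 20.5% rose. Against a change of 1.5-fold, 4 passed as higher and 1 as lower, where 2.31% and 1.27% of all tested genes did. The median log2 fold change of the list was -0.21 against -0.00 over all tested genes. HAS2, the hyaluronan synthase, fell from 7.53 ± 1.41 to 1.32 ± 0.329 CPM (log2 fold change -2.51, adjusted p = 5.78e-08). The intermediate filament gene VIM fell from 3849 ± 98.5 to 2757 ± 86.2 CPM, the matrix gene FN1 from 729 ± 65.5 to 474 ± 20.5 CPM and S100A4 from 151 ± 10.4 to 96.7 ± 4.29 CPM. CDH2, N-cadherin, fell (log2 fold change -0.19, adjusted p = 0.0179), a call lost with library totals as the scaling (adjusted p = 0.0695) and without 4 of the libraries: wild-type replicates 2 and 3 and knockout replicates 2 and 3 (adjusted p = 0.0803, 0.0892, 0.0648 and 0.0663). The contractile genes ACTA2 and TPM1 went the other way, ACTA2 from 15.7 ± 1.33 to 38.9 ± 1.97 CPM and TPM1 from 138 ± 9.69 to 237 ± 18.1 CPM. Not all contractile genes of the list rose. TPM2 and TAGLN, named after their values were seen, were not called (log2 fold changes -0.11 and 0.11, adjusted p = 0.0908 and 0.665). CNN1 was not tested.

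Epithelial genes that SNAI and ZEB factors are known to repress ranged from absent to abundant, and 18 of 39 were not tested, with at most 17 counts in any library. CDH1, E-cadherin, had 0, 3 and 0 counts in wild-type and none in knockout libraries. Of the 21 tested genes, 7 rose and 2 fell (median log2 fold change 0.16). Of all tested genes, 20.5% rose and 20.7% fell, or 41.2% in either direction. The keratin gene KRT7 rose from 12.2 ± 1.57 to 32.2 ± 5.99 CPM (adjusted p = 3.46e-07) and KRT18 from 455 ± 27.6 to 532 ± 8.60 CPM (adjusted p = 0.00152). Junction genes moved both ways. CLDN4 and PKP3 fell, from 19.6 ± 2.02 to 11.9 ± 1.37 CPM and from 27.9 ± 2.28 to 18.2 ± 1.40 CPM. CLDN1, PKP2 and TJP1, named after their values were seen, rose (log2 fold changes 1.45, 0.53 and 0.16, adjusted p = 0.0179, 0.0241 and 0.0311). CLDN1 had few and variable counts, 23, 7 and 22 in wild-type and 31, 76 and 39 in knockout libraries (SE 0.45). The number that rose was 2 without wild-type replicate 2 (2669 over all genes, against 3288 before) and 4 with DESeq2 (2766). It was 4 without knockout replicate 1 (2755) and 3 without knockout replicate 2 (2784). In RefSeq windows of 22 of these genes, 17 of 32 held CACCTG or CAGGTG, against 20.6% of all windows, and the windows were richer in G and C (median 66.2% against 58.7%). The list holds genes known as targets of factors that bind these letters, so nothing is read from this share.

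**Figure D3:**
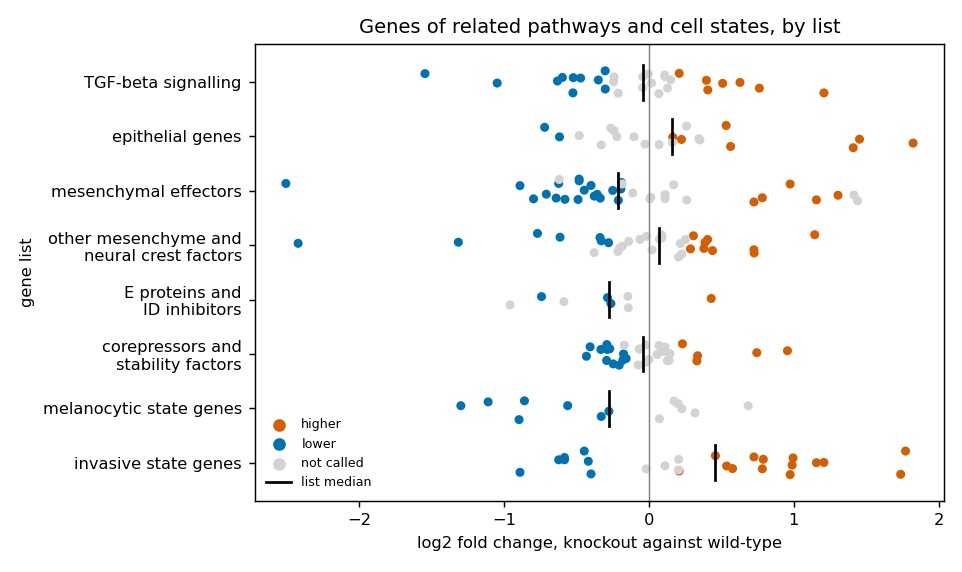
Log2 fold change of knockout against wild-type (x axis) for each tested gene of 8 lists (y axis), coloured by call, with a black line at the list's median. Genes of both colours occur in every list except the melanocytic one, in which 7 genes were lower and none higher.

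Of 31 other tested transcription factor genes of mesenchyme and neural crest, 9 rose and 7 fell (median log2 fold change 0.07), not far from the shares of all tested genes (20.5% and 20.7%). ETS1, a neural crest and endothelial factor, rose from 133 ± 8.85 to 293 ± 4.57 CPM (adjusted p = 7.01e-12), and the T-box gene TBX3 from 66.1 ± 1.54 to 109 ± 4.30 CPM. The homeobox gene DLX1 fell from 52.5 ± 6.09 to 34.4 ± 1.12 CPM, and FOXD3, which specifies neural crest, from 8.03 ± 1.47 to 3.21 ± 0.672 CPM. The number higher was 5 without knockout replicate 1 (2755 over all genes, against 3288 before).

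Genes of the melanocytic and invasive melanoma states were set beside the factors that mark these states. Of 24 melanocytic genes, 13 were tested, and the others had at most 13 counts in any library. By edgeR's quasi-likelihood test, 20.7% of all tested genes fell and 20.5% rose. Of the 13 tested melanocytic genes, 7 fell and 0 rose at this threshold (median log2 fold change -0.28). At an unadjusted p under 0.05, 2 were higher, and DESeq2 and limma-voom called 0 higher. With library totals as the scaling 2 were called higher (3880 over all genes, against 3288 before), and without wild-type replicate 1 there were 3 (3330). Against a change of 1.5-fold, 0 passed as higher and 3 as lower, where 2.31% and 1.27% of all tested genes did. The receptor genes ERBB3 and EDNRB fell from 113 ± 4.55 to 62.3 ± 1.34 CPM and from 11.6 ± 1.97 to 5.40 ± 0.599 CPM. SOX10 fell (log2 fold change -0.33, adjusted p = 5.11e-05), and MITF was not called (adjusted p = 0.586). Of 25 invasive-state genes, 14 rose and 7 fell (median log2 fold change 0.46), where 20.5% and 20.7% of all tested genes did. Against a change of 1.5-fold, 7 invasive-state genes passed as higher and 0 as lower. The AP-1 genes FOSL1 and FOSL2 rose from 617 ± 39.7 to 895 ± 11.5 CPM and from 57.5 ± 2.82 to 99.3 ± 6.51 CPM, and the cytokine gene IL6 from 17.3 ± 2.61 to 57.5 ± 6.67 CPM. The list shares genes with the mesenchymal effectors, FN1, TNC, LOXL2, PDGFRB, TPM1, CCN1 and CCN2 among them. The effectors in turn share 6 genes with the fibroblast markers: COL1A1, COL1A2, COL3A1, COL6A3, PDGFRB and THY1. SOX10 and PAX3 are in both the melanocytic list and that of other mesenchyme and neural crest factors.

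Markers of other cell types were summed beside these results, and their part in the results was not tested. Their calls stand beside 20.7% of all tested genes called lower and 20.5% called higher. The 12 fibroblast markers summed to 83.2 to 145 CPM in the wild type against 112 to 208 CPM after knockout, which overlapped. Of 9 tested, 2 fell, PDGFRB and COL6A3, and 0 rose, also at an unadjusted p under 0.05 and with DESeq2 and limma-voom. COL1A1 varied widely between libraries, from 4.70 to 37.7 CPM in wild-type and from 28.5 to 100.8 CPM in knockout libraries. PI16 was at 0 in every library, and DCN was at 5.37 to 7.05 and 4.46 to 6.04 CPM. Of 9 matched keratinocyte markers, KRT1, KRT5 and IVL were at 0 in every library. Endothelial markers summed to 5.88 to 7.50 CPM in wild-type and 3.83 to 5.84 CPM in knockout libraries, with 1 of 4 tested, TIE1, lower (adjusted p = 0.0225), a call lost with DESeq2 and without wild-type replicate 3 or knockout replicate 1 or 2 (adjusted p = 0.0731, 0.0942, 0.0724 and 0.0635). Leukocyte markers summed to 213 to 227 and 144 to 169.7 CPM, most of it HLA-DRA, with 1 of 5 tested higher, 2 with DESeq2 or without a filter, and 2 lower, and with CD3E at 0. Summed keratinocyte markers were at 151 to 167 and 136 to 144 CPM, most of it PERP and KRT10, with 1 of 4 tested lower.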

How the data were processed

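RNA of A375 cells was sequenced in paired ends on a BGISEQ-500, per the labels' protocols. The deposited values are estimated counts per gene, partly fractional (8.64% to 9.46% of genes in a library), made by the authors on build GRCh38 (hg38), as the submitters' processing notes name it. Which aligner, counter, strand setting and annotation they used is not given in the sources used here. Reads of overlapping or near-identical genes may be split differently by other tools. Identifiers without version were matched to GENCODE release 44 (62541 of 63086).

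Counts were rounded, filtered with filterByExpr (minimum count 10), scaled by TMM and tested in R 4.3.3 with edgeR 4.0.16 (robust quasi-likelihood test, two-sided, Benjamini-Hochberg adjustment over 16046 genes, threshold 0.05), and with glmTreat against 1.5-fold. CPM values use the TMM-scaled library totals. The floor of 3 counts covers counting error only. The common biological coefficient of variation was 7.12%. Scripts were tested on simulated data, where false calls exceeded the nominal share and small changes were often missed. Small called changes may therefore be less certain than their adjusted p. Far fewer genes were changed in the simulation than were called here, so its shares need not hold for these data. Alternatives were DESeq2 1.42.0, limma-voom (limma 3.58.1), relative log expression scaling, library totals, no filter, a replicate block and leaving out each library.

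The genes and lists were chosen with earlier results of these data known. Text names, from each list, up to 4 tested genes with the smallest p and a set of preselected genes such as CDH1, VIM and MITF, the neighbours, and the 5 nearest profiles of PRRX1 and of MEOX2. Other marker genes at 0 or leading a sum, ENSG identifiers and DCN were named after their values were seen. Promoter windows are from RefSeq (GRCh38.p14). Protein sequences were not used here. A few genes that the naming rule covers are not reported here.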

Additional observations from a re-analysis of the deposited data

How the results depend on the processing

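PRRX1, MEOX2 and TWIST1 were called lower under every alternative run. These runs reuse the libraries by which PRRX1 and MEOX2 were chosen, so they show how the calls depend on settings and are no independent support. The transcription factor genes called higher numbered 1 (ZEB2), against 0 with DESeq2 and 0 without a filter, and 0 to 1 when single libraries were left out. With DESeq2, 4 epithelial genes were higher (7 before), 2 leukocyte markers were higher (1 before) and 0 endothelial markers were lower (1 before). Without a filter, 2 leukocyte markers were higher. With library totals as the scaling, 9 corepressor genes (5 before), 2 melanocytic genes (0 before) and 1 keratinocyte marker (0 before) were higher, and the median log2 fold change of all genes moved by 0.045. With limma-voom, 1 keratinocyte marker was higher. Leaving out single libraries gave 2 to 7 higher epithelial genes, 5 to 9 higher factors of mesenchyme and neural crest, 0 to 1 higher E protein or ID genes, 0 to 1 lower antisense transcripts, 0 to 3 higher melanocytic genes and 0 to 1 lower endothelial markers. The cause was not tested. Genes called over the whole table numbered 2669 to 3330 higher and 2700 to 3307 lower when single libraries were left out. They numbered 2766 and 2816 with DESeq2, 3880 and 2732 with library totals, 3334 and 3339 with limma-voom, and 3207 and 3418 without a filter. In the main fit, 3288 were higher and 3320 lower. ZEB2 lost its call in 7 of 12 alternatives. Counting each other named gene under each alternative, 19 results lost and 9 gained a call, and 1004 did not cross the threshold or, for the transcription factor genes, moved by less than the spread between replicates.

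The replicate numbers did not pair the libraries. Deviations of libraries with the same number correlated at -0.03, -0.00 and 0.03, and wild-type replicate 1 correlated best with knockout replicate 2 (0.04). With a replicate block, 3122 genes were higher and 3119 lower, against 3288 and 3320 without it, and 3 of the transcription factor genes were lower and 1 higher. Depth limits PRRX2, MEOX1 and SNAI2, whose libraries held at most 53 counts.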
